A study of Homo sapiens with 6 samples.

Results

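The genes described here are 35 genes of the Hippo pathway and of the programme that its effector YAP switches on, taken by name from a table of 58174 genes measured by polyA RNA-seq. They comprise 24 regulators and 11 established YAP target genes, and every member was found in the table, CCN2 and CCN1 under their older symbols CTGF and CYR61. The cells were A549, an established human line from an adenocarcinoma of the lung. The groups were the parental line (Ctrl) and a derivative with a CRISPR/Cas9 deletion in the MIR21 locus (MIR21-KO), with 3 libraries per group, and the question was how these genes differ once miR-21 is lost. All cells grew in the same serum-containing medium and were harvested 48 h after seeding. MIR21-KO cells descend from single cells sorted after transfection of Cas9 and paired guide RNA plasmids. The parental population had not been through this procedure, so effects of the deletion and of clonal derivation cannot be told apart. The sources used here do not give how many clones the MIR21-KO libraries came from. The study describes the libraries of a group as independent samples. Whether independent means separate cultures or separate clones is not detailed in the sources used here.

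The Hippo pathway is a kinase cascade that restrains growth. MST kinases (STK3 and STK4) with their scaffold SAV1 activate LATS kinases (LATS1 and LATS2) with their MOB1 cofactors, and LATS phosphorylates the co-activators YAP (YAP1) and TAZ (WWTR1), which are then kept in the cytoplasm or degraded. Unphosphorylated YAP and TAZ enter the nucleus, bind the TEAD transcription factors and switch on genes such as CCN2, CCN1 and ANKRD1. Several target genes, among them LATS2 and AMOTL2, feed back on the pathway. The pathway acts mainly through phosphorylation and protein location. The mRNA levels show how much mRNA of each component and of each target was present. They do not measure protein levels or YAP activity itself. In bulk RNA, fewer cells that express a gene and less of its mRNA per cell cannot be told apart.

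Levels are given as FPKM, which counts fragments per length of gene and depth of library. Each gene had the same length in all libraries. Comparisons of levels between genes therefore depend on the lengths used, whereas changes of a gene between libraries do not. The reads behind these values summed to 10631667 to 14345209 per library, which made 1 read on a 1 kb gene equal to 0.0731 to 0.0930 FPKM. MIR21 itself was listed at 0 in all 6 libraries, Ctrl included, so the deletion could not be checked from its own RNA. The host gene VMP1 rose from 75.1 ± 3.83 to 143 ± 7.18 FPKM (SD, n = 3 each, limma FDR 4.73e-04). Of the epithelial markers, KRT7, KRT8, KRT18 and KRT19 were abundant and EPCAM was low (0.389 to 1.65 FPKM), and 1 of the 6 listed, CDH1, was called, falling from 8.18 ± 0.584 to 2.86 ± 0.148 FPKM. The 6 epithelial markers summed to 1684 to 1807 FPKM in Ctrl and 1217 to 1745 in MIR21-KO, and 4 enzymes that are typically high in A549 to 3486 to 3566 and 3925 to 4170. Markers of other cells were near 0. The 3 surfactant genes measured summed to at most 0.0996 FPKM (SFTPA1 at 0), the 4 endothelial markers to at most 0.0855 and the 5 haematopoietic markers to at most 0.369 (CD3E at 0), whereas the 6 fibroblast markers summed to 5.52 to 5.89 FPKM in Ctrl and 5.42 to 7.74 in MIR21-KO, mostly COL1A1 and LUM, with COL1A2 at 0.

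A TEAD factor recognises the letters GGAATG on either strand, and the promoters of the classical targets show what such a site looks like. CCN2 (chr6:131951373-131951622, minus strand) and ANKRD1 (chr10:90921088-90921337, minus strand) are shown first because both are textbook YAP targets whose mRNAs moved in opposite directions here. Each line gives the 250 bases before the RefSeq start site on GRCh38.p14, 5′ to 3′. Capitals mark GGAATG and, in ANKRD1, a match to the AP-1 letters TGANTCA that begins 195 bases before the start. N was taken as any base and is T in this match.
CCN2: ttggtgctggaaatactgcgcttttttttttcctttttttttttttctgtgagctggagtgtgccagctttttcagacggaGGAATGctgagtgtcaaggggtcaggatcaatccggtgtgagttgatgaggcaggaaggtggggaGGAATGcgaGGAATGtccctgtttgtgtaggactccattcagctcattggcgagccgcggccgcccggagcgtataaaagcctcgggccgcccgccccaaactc
ANKRD1: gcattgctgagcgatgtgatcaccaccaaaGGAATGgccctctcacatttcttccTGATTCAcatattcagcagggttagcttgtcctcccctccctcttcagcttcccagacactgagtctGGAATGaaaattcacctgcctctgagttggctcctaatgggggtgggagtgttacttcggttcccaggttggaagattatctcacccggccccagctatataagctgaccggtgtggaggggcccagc
The CCN2 window held 3 matches, at 169, 104 and 95 bases before the start, and the ANKRD1 window held 2, at 220 and 128 bases before it. Of 35116 RefSeq promoters of the same design (250 bases before to 50 after the start), 14.0% held at least 1 match on either strand, 1.37% at least 2 and 0.128% at least 3.

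The remaining promoters with a match belonged mostly to regulators. A promoter was given for 26 of the 35 genes, and 8 of these held a match, compared with 16.7% of 27305 genes in all. The 30 bases around each are shown for the other 6, with the match in capitals, either as GGAATG or as its complement CATTCC. LATS2, AMOTL2 and PTPN14 are regulators that passed the test, AJUBA likewise, AXL is a target, and YAP1 is the co-activator itself, which did not pass. The windows lie at chr13:21061560-21061589 for LATS2, chr3:134374499-134374528 for AMOTL2, chr1:214551785-214551814 for PTPN14 and chr14:22976884-22976913 for AJUBA, all on the minus strand, and at chr19:41226531-41226560 for AXL and chr11:102110273-102110302 for YAP1 on the plus strand.
LATS2: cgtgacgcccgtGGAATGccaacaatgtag
AMOTL2: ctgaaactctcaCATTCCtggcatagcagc
PTPN14: cctcccgggccgCATTCCtccccgcccccg
AJUBA: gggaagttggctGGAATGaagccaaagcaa
AXL: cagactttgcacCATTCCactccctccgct
YAP1: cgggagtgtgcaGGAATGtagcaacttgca
The match begins 200 bases before the start in PTPN14, 162 in YAP1, 212 in AXL, 69 in AMOTL2 and 59 in AJUBA, and 10 bases into the transcript in LATS2. For AMOTL2, AJUBA and AXL it lies at the second of 2 listed start sites. Of the 10 genes that passed the test described below, 9 had a promoter sequence and 7 of these held a match, all but NT5E and FSTL1. Among the 7, CCN2 and PTPN14 rose while the other 5 fell, so the letters were present beside genes of both directions. AP-1 letters stood in 4 of the 39 promoters given for the 26 genes (10.3%; ANKRD1, F3, LATS1 and MOB1B) and in 7.71% of all promoters. A match describes the sequence and does not show that a factor is bound there.

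**Figure D1:**
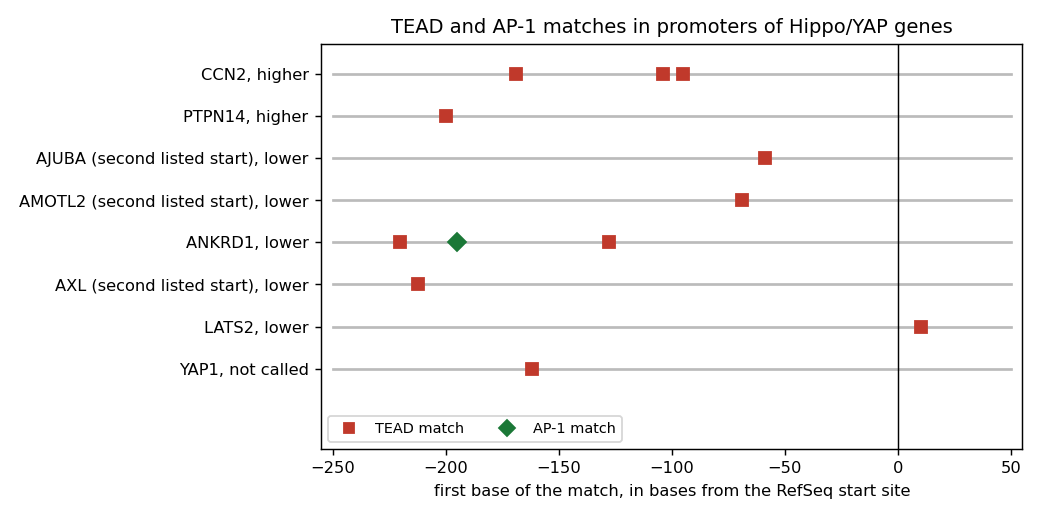
TEAD and AP-1 matches in the promoters of the 8 Hippo/YAP genes with a TEAD match. The x axis is the distance of the first base of each match from the RefSeq start site in bases, squares are TEAD letters, the diamond is the AP-1 match, and each row names the gene and its direction in MIR21-KO: 7 of the 8 rows are genes that rose or fell, and CCN2 holds 3 matches.

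Of the 35 genes, 32 reached the mean of 0.5 FPKM required for testing, and 10 differed between MIR21-KO and Ctrl at an FDR under 0.01 (limma on log2(FPKM + 0.1), Benjamini-Hochberg over 16006 genes). That is 31.2% of those tested, compared with 16.0% of all tested genes. The calls were balanced in direction. PTPN14, CCN2, TGM2, NT5E and FSTL1 rose, while LATS2, AMOTL2, AJUBA, ANKRD1 and AXL fell, set beside 7.66% of all tested genes called higher and 8.38% called lower. The median log2 fold change over the 32 genes was -0.24, compared with -0.02 over all tested genes, and 20 of the 32 values were below 0. Calls were made for 4 of 22 regulators and 6 of 10 targets. LATS2 and AMOTL2, counted here as regulators, are also YAP targets, so this split depends on where such genes were placed. In 21 of the 32 genes the libraries of both groups did not overlap at all (9 higher and 12 lower in MIR21-KO), a state seen in 48.1% of all tested genes (22.8% higher and 25.2% lower). AMOT, DCHS1 and DLC1 stayed below the minimum level and are described further down.

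**Figure D2:**
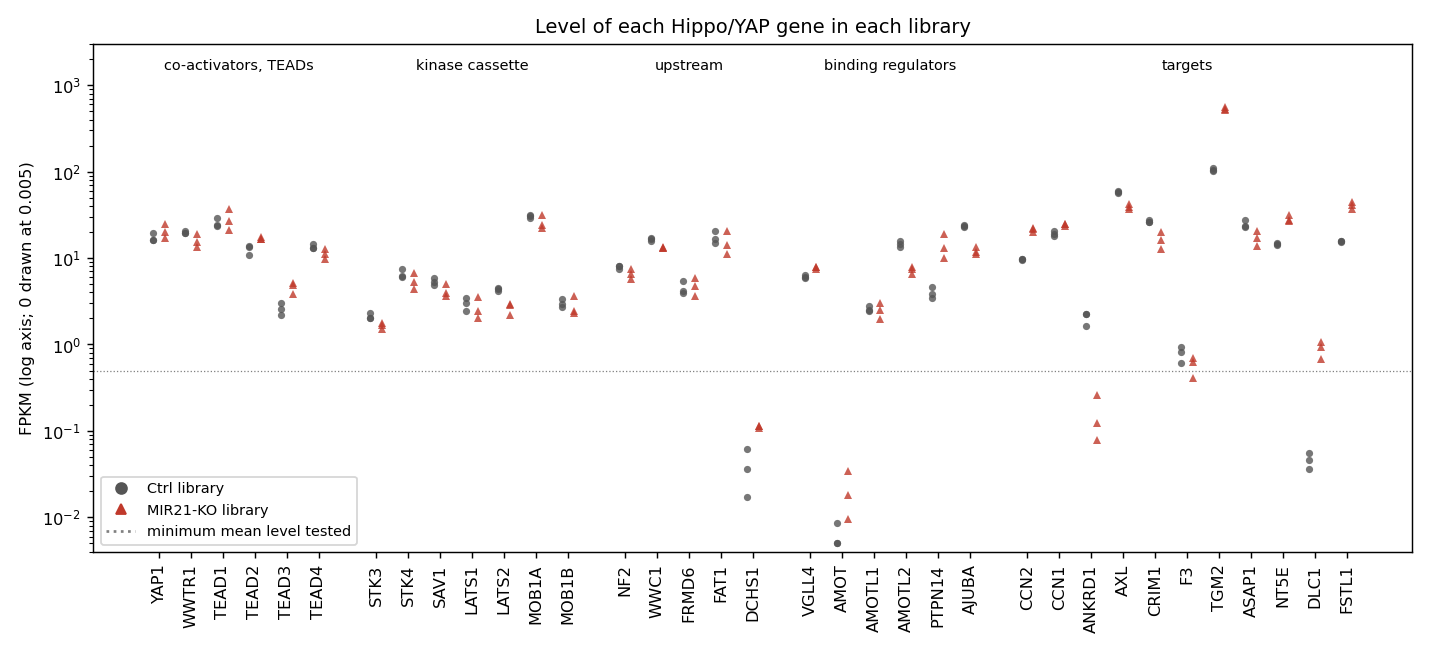
Level of each of the 35 genes in each library. The y axis is FPKM on a log scale (a value of 0 is drawn at 0.005), circles are the 3 Ctrl libraries, triangles the 3 MIR21-KO libraries, genes are grouped by role and the dotted line marks 0.5 FPKM: TGM2 is the most abundant member, at 511 to 561 FPKM in MIR21-KO, and AMOT the least.

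The effector level of the pathway was present in both groups, and none of its 6 genes passed the test (4 had an unadjusted p under 0.05 by limma and 2 an FDR under 0.05, beside 43.2% and 32.0% of all tested genes). YAP1 stood at 19.6, 16.3 and 16.2 FPKM in Ctrl and 17.2, 19.8 and 24.9 in MIR21-KO, so the groups overlapped, and its log2 fold change was 0.24 with a 95% interval of -0.12 to 0.60. WWTR1, which encodes the YAP paralogue TAZ, stood at 20.5, 19.6 and 19.4 FPKM in Ctrl and 13.5, 15.5 and 19.2 in MIR21-KO. Every MIR21-KO library was below every Ctrl library, but replicate 3 only just, and the log2 fold change was -0.32 ± 0.13 (SE, FDR 0.110). Without MIR21-KO replicate 3 it was -0.45 ± 0.079 and passed, at an FDR of 0.00715.

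Set against each other within a library, the co-activators gave ratios that did not overlap between the groups. The ratio of YAP1 to WWTR1 FPKM was 0.958, 0.829 and 0.835 in Ctrl and 1.28, 1.28 and 1.30 in MIR21-KO. Which gene of the pair was the higher depends on the gene lengths used, 6296 bases for YAP1 and 8413 for WWTR1. In reads, WWTR1 exceeded YAP1 in every library, MIR21-KO included (1546, 1595 and 2096 reads beside 1478, 1523 and 2033). The change of the ratio between the groups does not depend on these lengths. The mean ratio moved from 0.874 ± 0.0724 to 1.28 ± 0.0112 (SD, n = 3 each). This was 1 of 9 within-library measures chosen after the values had been seen, and the smallest p that an exact permutation test of 3 against 3 libraries can give, two-sided, is 0.1, which this ratio reached (0.15 after adjustment over the 9).

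Among the TEAD factors, the DNA-binding partners of YAP and TAZ, TEAD1 was the most abundant at 25.7 ± 3.17 FPKM in Ctrl and 28.5 ± 8.05 in MIR21-KO, with overlapping libraries. TEAD3, the least abundant, stood at 3.02, 2.20 and 2.59 FPKM in Ctrl and 5.08, 4.91 and 3.85 in MIR21-KO. Its log2 fold change of 0.80 ± 0.16 missed the threshold at an FDR of 0.0114 and passed it without MIR21-KO replicate 3 (0.93, FDR 0.00565). TEAD2 was at 12.7 ± 1.58 and 16.7 ± 0.516 FPKM (log2 fold change 0.41, FDR 0.0264) and TEAD4 at 13.7 ± 0.929 and 11.2 ± 1.45 (-0.29, FDR 0.0943), neither with overlapping libraries. As a share of summed TEAD FPKM, TEAD3 took 4.75% ± 0.286 in Ctrl and 7.66% ± 1.72 in MIR21-KO, and TEAD4 25.1% ± 1.07 and 18.6% ± 3.98, each with an exact permutation p of 0.1 (0.15 adjusted). Summed TEAD mRNA was 54.6 ± 5.74 and 61.0 ± 5.55 FPKM (exact permutation p = 0.3, adjusted 0.337).

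**Figure D3:**
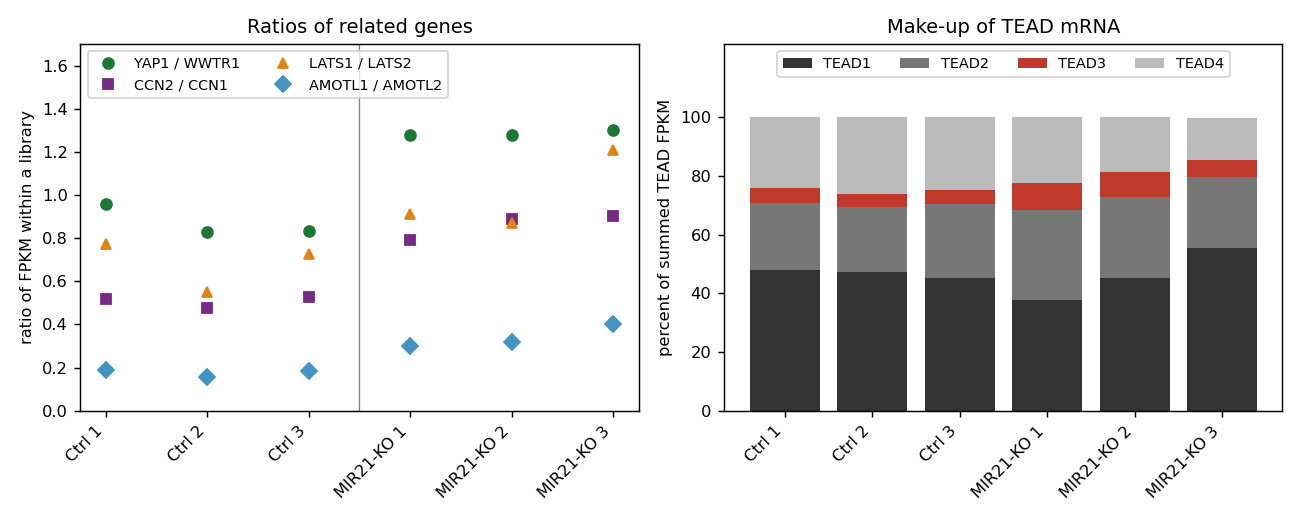
Ratios within a library. The left panel plots the ratio of FPKM of 4 gene pairs in each of the 6 libraries (y axis, no unit), and the right panel the percent of summed TEAD FPKM taken by each TEAD gene: YAP1/WWTR1 lies at 0.829 to 0.958 in Ctrl and at 1.28 to 1.30 in MIR21-KO, and the TEAD3 share at 4.42% to 4.95% and 5.73% to 9.04%.

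In the kinase cassette 1 of 7 genes passed, or 14.3%, near the 16.0% of all tested genes. All 7 log2 fold changes were below 0, with a median of -0.27, beside 51.5% of all tested genes below 0, but those of LATS1 and MOB1B came to 0.00 and -0.00 without MIR21-KO replicate 1. LATS2, one of the kinases that phosphorylate YAP and itself a YAP target, fell from 4.51, 4.38 and 4.14 FPKM in Ctrl to 2.21, 2.83 and 2.92 in MIR21-KO. The libraries did not overlap, the means were 4.34 ± 0.186 and 2.65 ± 0.384 (SD, n = 3 each) and the log2 fold change was -0.70 ± 0.13 (SE, FDR 0.00876). The call was a narrow one. Leaving out any Ctrl library gave an FDR of 0.0321 to 0.0398, and leaving out MIR21-KO replicate 1 or 2 gave 0.0107 or 0.0299, with log2 fold changes of -0.75 to -0.58. Its paralogue LATS1 stood at 2.97 ± 0.531 and 2.66 ± 0.776 FPKM with overlapping libraries, so the ratio of LATS1 to LATS2 went from 0.684 ± 0.116 to 0.996 ± 0.185 (exact permutation p = 0.1, adjusted 0.15).

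The other 5 cassette genes did not pass. STK3 (MST2) was at 2.11 ± 0.157 and 1.65 ± 0.134 FPKM without overlap (log2 fold change -0.33, FDR 0.108). STK4 (MST1) was at 6.56 ± 0.816 and 5.48 ± 1.16 FPKM (-0.27, FDR 0.270), and the scaffold SAV1 at 5.34 ± 0.536 and 4.22 ± 0.750 (-0.34, FDR 0.128). Of the LATS cofactors, MOB1A was the more abundant, at 30.5 ± 1.41 and 25.9 ± 4.56 FPKM (-0.25, FDR 0.187), and MOB1B was at 2.98 ± 0.321 and 2.78 ± 0.750 (-0.12, FDR 0.674). Without MIR21-KO replicate 3, MOB1A passed (-0.38, FDR 0.00737).

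Upstream of the kinases, none of the 4 genes tested passed (2 had an unadjusted p under 0.05 by limma, beside 43.2% of all tested genes). WWC1, the scaffold KIBRA, came nearest, at 17.1, 15.7 and 16.8 FPKM in Ctrl and 13.0, 13.4 and 13.0 in MIR21-KO (log2 fold change -0.32 ± 0.069, FDR 0.0132). NF2, the membrane-linked activator Merlin, was at 7.96 ± 0.363 and 6.59 ± 0.852 FPKM (-0.28, FDR 0.107), also without overlap. FRMD6, at 4.52 ± 0.819 and 4.72 ± 1.11, and the giant cadherin FAT1, at 17.5 ± 2.83 and 15.3 ± 4.93, had overlapping libraries. DCHS1, a cadherin that binds FAT proteins, was measured by 16 reads in the Ctrl libraries together and 47 in the MIR21-KO libraries, at 0.0173 to 0.0611 and 0.109 to 0.115 FPKM, and was not tested at this level.

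Of the genes for proteins that bind YAP, TAZ or LATS or, in the case of VGLL4, TEAD, 3 of 5 tested passed, 1 higher and 2 lower. Of all tested genes 16.0% passed, 7.66% higher and 8.38% lower. PTPN14, a phosphatase that binds YAP and holds it in the cytoplasm, rose from 4.63, 3.48 and 3.85 FPKM in Ctrl to 10.1, 13.0 and 19.2 in MIR21-KO. The lowest MIR21-KO library was thus above the highest Ctrl library by a wide margin, but the MIR21-KO libraries were themselves spread (14.1 ± 4.63 FPKM, compared with 3.99 ± 0.586). The log2 fold change was 1.76 ± 0.24 with a 95% interval of 1.20 to 2.32 (FDR 0.00247). Without Ctrl replicate 2, Ctrl replicate 3 or MIR21-KO replicate 2 it was 1.67, 1.74 or 1.79, and the FDR was 0.0133, 0.0140 or 0.0144.

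AMOTL2, an angiomotin family protein that sequesters YAP and is itself a YAP target, was lower in every MIR21-KO library than in any Ctrl library. It stood at 14.5, 15.6 and 13.5 FPKM in Ctrl and 6.62, 7.89 and 7.45 in MIR21-KO, a log2 fold change of -0.98 ± 0.098 (FDR 7.94e-04). AJUBA, a LIM protein that inhibits LATS, fell from 24.2, 22.6 and 23.5 FPKM to 11.2, 13.3 and 11.7 (-0.95 ± 0.087, FDR 5.75e-04). An inhibitor of YAP and an inhibitor of LATS were thus lowered to nearly the same degree. Both calls held under every alternative that was run.

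The other members of this group moved less or were barely present. VGLL4, which competes with YAP for TEAD, was at 6.06 ± 0.259 FPKM in Ctrl and 7.72 ± 0.195 in MIR21-KO without overlap, but missed the threshold (log2 fold change 0.34 ± 0.079, FDR 0.0171). AMOTL1 stood at 2.56 ± 0.186 and 2.51 ± 0.511 FPKM with overlapping libraries (-0.05, 95% interval -0.45 to 0.36). The ratio of AMOTL1 to AMOTL2 went from 0.176 ± 0.0187 to 0.341 ± 0.0550 (exact permutation p = 0.1, adjusted 0.15). AMOT was covered by 1 read in the Ctrl libraries together and 7 in the MIR21-KO libraries, so AMOTL2 and AMOTL1 made up nearly all angiomotin family mRNA in these cells.

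**Figure D4:**
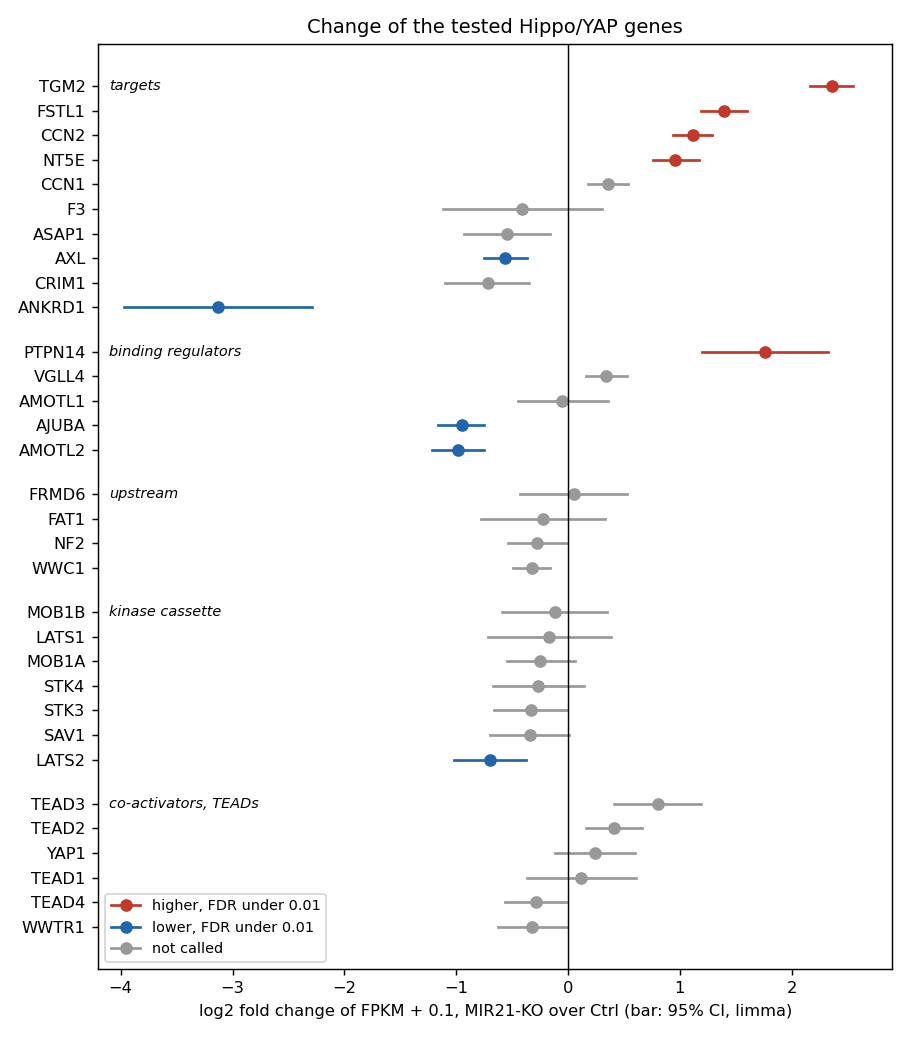
Change of the 32 tested genes. The x axis is the log2 fold change of FPKM + 0.1 in MIR21-KO over Ctrl, points are estimates and bars 95% confidence intervals from limma (3 libraries per group), coloured by call and grouped by role: 5 genes rose, 5 fell, and the kinase cassette estimates lie below 0 (those of LATS1 and MOB1B reach 0.00 and -0.00 without MIR21-KO replicate 1).

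The target genes did not move as one block. Of 10 tested, TGM2, FSTL1, CCN2 and NT5E rose, ANKRD1 and AXL fell and 4 did not pass. Among all tested genes 7.66% were called higher and 8.38% lower. TGM2, the cross-linking enzyme transglutaminase 2, was the most abundant of all 35 genes and rose from 109, 101 and 104 FPKM in Ctrl to 511, 537 and 561 in MIR21-KO. The mean was 5.13 times that of Ctrl, and the log2 fold change was 2.36 ± 0.083 (FDR 2.5e-05). FSTL1, a secreted glycoprotein, rose from 15.7, 15.3 and 15.6 FPKM to 37.0, 41.2 and 44.7 (1.39 ± 0.086, FDR 1.45e-04). NT5E, the surface ectonucleotidase CD73, rose from 14.0, 14.7 and 15.1 FPKM to 26.7, 27.5 and 31.7 (0.96 ± 0.087, FDR 5.53e-04). In each of these genes the MIR21-KO libraries lay far above a narrow Ctrl range, and the calls held under every alternative that was run.

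CCN2 and CCN1, a pair of related matricellular proteins that are commonly read together as YAP reporters, differed in size of change. CCN2 rose from 9.67, 9.82 and 9.57 FPKM in Ctrl to 19.8, 22.1 and 21.5 in MIR21-KO (log2 fold change 1.12 ± 0.073, 95% interval 0.94 to 1.29, FDR 1.70e-04). CCN1 stood at 18.8, 20.6 and 18.1 FPKM in Ctrl and 25.0, 24.9 and 23.8 in MIR21-KO. Its libraries did not overlap either, but its log2 fold change of 0.36 (95% interval 0.18 to 0.54) missed the threshold with an FDR of 0.0126. The ratio of CCN2 to CCN1 was 0.516, 0.477 and 0.529 in Ctrl and 0.791, 0.888 and 0.901 in MIR21-KO (exact permutation p = 0.1, adjusted 0.15).

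ANKRD1, a cardiac ankyrin repeat protein and the third of the usual YAP reporters, went the other way. It stood at 2.26, 2.26 and 1.63 FPKM in Ctrl and 0.260, 0.124 and 0.0779 in MIR21-KO, which corresponds to 149 reads over the Ctrl libraries and 12 over the MIR21-KO libraries. The level in Ctrl was 13.0 times that in MIR21-KO, with a 95% interval of 7.21 to 25.7 that covers counting error only. The log2 fold change was -3.13 ± 0.35 (FDR 0.00126). Its size depended on the pseudocount, at -1.40 with 1 FPKM and -3.79 with 0.01 FPKM, and the FDR was 0.0124 without Ctrl replicate 1 and 0.0117 without Ctrl replicate 2. ANKRD1 reached the minimum level for testing through its Ctrl libraries.

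AXL, a receptor tyrosine kinase, also fell, from 59.4, 57.7 and 56.7 FPKM in Ctrl to 36.6, 38.9 and 42.7 in MIR21-KO (log2 fold change -0.56 ± 0.080, FDR 0.00315). Without any 1 of the Ctrl libraries or without MIR21-KO replicate 2, the FDR was 0.0184 to 0.0224 at log2 fold changes of -0.57 to -0.54. CRIM1, a transmembrane protein that binds BMPs, stood at 26.6 ± 1.07 and 16.4 ± 3.60 FPKM (-0.72, FDR 0.0141), and ASAP1, an Arf GTPase-activating protein, at 24.8 ± 2.60 and 17.1 ± 3.58 (-0.55, FDR 0.0416). Neither passed with all libraries, and both passed without MIR21-KO replicate 3 (-0.88, FDR 0.00235 for CRIM1 and -0.70, FDR 0.00760 for ASAP1). F3, tissue factor, was low, at 0.614 to 0.941 FPKM in Ctrl and 0.408 to 0.697 in MIR21-KO, and its libraries overlapped.

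DLC1, a GTPase-activating protein, had a mean over all libraries just under the minimum level and was almost absent in Ctrl. It stood at 0.0553, 0.0363 and 0.0457 FPKM in Ctrl and 0.677, 0.945 and 1.08 in MIR21-KO, or 22 reads over the Ctrl libraries and 446 over the MIR21-KO libraries. The MIR21-KO level was 19.4 times that in Ctrl, with a counting interval of 12.7 to 31.3. In the fit without a minimum level, over 29384 genes, its log2 fold change was 2.76 ± 0.29 with an FDR of 0.00232.

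The 3 MIR21-KO libraries were ordered alike in many of these genes. Replicate 1 was the lowest and replicate 3 the highest of the MIR21-KO libraries in 19 of the 32 tested genes (59.4%), compared with 28.8% of all tested genes, and PTPN14, FSTL1, NT5E, TGM2, AXL, YAP1 and WWTR1 are among the 19. The library size that the authors had used, relative to the reads recovered, was 0.9497 in replicate 1, 0.984 in replicate 2 and 1.03 in replicate 3, and between 1.012 and 1.014 in the Ctrl libraries. Scaling by total recovered reads in place of that library size left 9 members called, and LATS2 lost its call. The part of the ordering in the results was not tested beyond leaving out single libraries.

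A further list of 15 YAP target genes that are not among the 35 was compared in the same fit. The list was chosen with earlier results of these data known, so its counts describe these genes only. All 15 were tested and 11 passed (73.3%, beside 16.0% of all genes), 6 higher and 5 lower. The groups did not overlap in 14 of 15, beside 48.1% of all tested genes, and the median log2 fold change was 0.08. Among those that fell was AREG, the EGFR ligand amphiregulin, from 31.6, 37.8 and 31.0 FPKM in Ctrl to 2.09, 1.49 and 1.31 in MIR21-KO (log2 fold change -4.30 ± 0.18, FDR 4.19e-05). EDN1, the peptide hormone endothelin 1, fell from 27.1 ± 1.85 to 3.65 ± 0.290 FPKM (-2.86 ± 0.093, FDR 2.04e-05). The kinase gene NUAK2 fell from 29.2 ± 1.37 to 14.6 ± 1.46 FPKM (-1.0, FDR 5.85e-04). IGFBP3 (-0.85) and BIRC5, which encodes survivin (-0.65), also fell.

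Among those that rose was CCDC80, a matrix protein, from 4.73 ± 0.277 to 16.4 ± 1.5 FPKM (log2 fold change 1.77 ± 0.097, FDR 1.01e-04). The ligand TGFB2 rose from 13.7 ± 0.979 to 28.5 ± 5.82 FPKM (1.03, FDR 0.00312). RBMS3 (1.56), GADD45A (0.74) and ARHGEF17 (0.71) rose as well. RBMS3, at 0.262 ± 0.0284 FPKM in Ctrl and 0.971 ± 0.155 in MIR21-KO, reached the minimum level for testing through its MIR21-KO libraries, and its log2 fold change was 0.64 with a pseudocount of 1 FPKM. THBS1, thrombospondin 1, was at 14.2 ± 1.29 and 26.3 ± 6.54 FPKM and missed the threshold (0.86, FDR 0.0130), and MYOF, DOCK5 and FOXF2 did not pass. Leaving out single libraries removed the calls of TGFB2 (FDR 0.0131 to 0.0175), RBMS3 (0.0246 to 0.0498), GADD45A (0.0110 to 0.0237), ARHGEF17 (0.0191 to 0.0265) and BIRC5 (0.0217 to 0.0311).

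**Figure D5:**
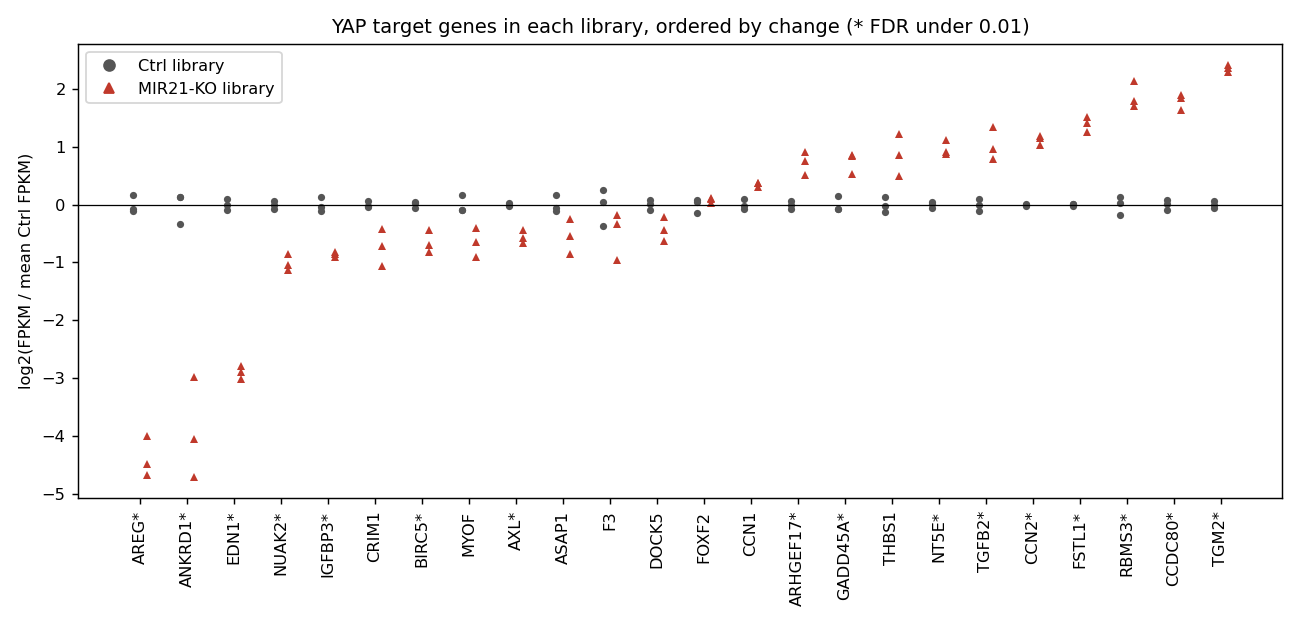
Tested YAP target genes in each library, the 10 members together with the further targets described here. The y axis is log2 of FPKM over the mean Ctrl FPKM, circles are Ctrl and triangles MIR21-KO libraries, genes are ordered by change and an asterisk marks an FDR under 0.01: AREG, ANKRD1 and EDN1 form the lower end and TGM2 and CCDC80 the upper.

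Of 40 further pathway genes (upstream kinases, STRIPAK subunits, polarity and junction proteins), 33 were tested and 5 passed (15.2%), 1 higher and 4 lower, close to the 16.0% of all genes. TNIK, a kinase of the MAP4K group, rose from 0.682, 0.622 and 0.609 FPKM to 2.14, 2.5 and 3.23 (log2 fold change 1.87 ± 0.19, FDR 9.12e-04). LIMD1, a relative of AJUBA that likewise restrains LATS, fell from 7.24, 6.84 and 7.15 FPKM to 2.36, 2.70 and 2.52 (-1.45 ± 0.096, FDR 1.77e-04). The polarity genes PARD3, from 39.7 ± 1.62 to 16.9 ± 0.404 FPKM (-1.23, FDR 9.83e-05), and CRB3, from 3.04 ± 0.336 to 1.49 ± 0.0871 (-0.98, FDR 0.00272), fell too. FJX1, whose fly relative four-jointed phosphorylates Fat and Dachsous cadherins, fell from 23.2 ± 1.35 to 14.4 ± 1.85 FPKM (-0.69, FDR 0.00425). The call of CRB3 was lost without Ctrl replicate 1, Ctrl replicate 3 or MIR21-KO replicate 2 (FDR 0.0138 to 0.0177), and that of FJX1 without any 1 Ctrl library or MIR21-KO replicate 2 (0.0161 to 0.0246). The median over the 33 genes was -0.20, with 22 values below 0.

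Because the deleted gene encodes a miRNA, the members were also searched for its seed matches. Mature miR-21-5p is encoded at chr17:59841273-59841294 on the plus strand of GRCh38.p14, and its seed, bases 2 to 8, stands in capitals.
miR-21-5p: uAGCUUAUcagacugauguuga
A target mRNA pairs with this seed through ATAAGCT in its 3′ UTR, and a following A makes the match an 8mer. In the longest 3′ UTR annotated by GENCODE 29 for each gene, such a match was found in 6 of the 35 genes, compared with 10.6% of 11656 tested coding genes. They are YAP1 (chr11:102231639-102231666, plus strand), WWTR1 (chr3:149517503-149517529, minus), LATS1 (chr6:149661254-149661281, minus), PTPN14 (chr1:214348947-214348973, minus), CRIM1 (chr2:36550278-36550304, plus) and NT5E (chr6:85495005-85495031, plus), all on GRCh38 and each shown with its flanks and with the match in capitals.
YAP1: aattaactcttcaatATAAGCTAtgaag
WWTR1: acttttatgaaaaaaATAAGCTgttaa
LATS1: tgtttttggtagaaaATAAGCTAgagaa
PTPN14: attttatatcagtaaATAAGCTtatgc
CRIM1: ggaatattgtccacaATAAGCTggaag
NT5E: agagaaccttctaacATAAGCTgtaat
PTPN14 and NT5E rose in MIR21-KO, at log2 fold changes of 1.76 and 0.96. The genes with an 8mer, YAP1 and LATS1, had values of 0.24 and -0.17 and did not pass, nor did WWTR1 (-0.32) and CRIM1 (-0.72). TGM2, FSTL1 and CCN2, which rose as well, had no such match. Of these 3, FSTL1 held a 6mer and the other two held none. STK4, SAV1 and CCN1 held at best a match that lacks the first A of ATAAGCT but keeps the following A (7mer-A1). That was the best match in 4.59% of the coding genes. The length of the 3′ UTR was not taken into account in these comparisons, although a longer one offers more positions for a match. A seed match describes the sequence and does not show that miR-21-5p acts on the mRNA.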

How the data were processed

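PolyA-selected, strand-specific libraries of A549 cells (3 Ctrl, 3 MIR21-KO, grouped by sample titles) were sequenced on an Illumina HiSeq. The submitters' processing notes name cutadapt 1.14, HISAT2 2.1.0, SAMtools 1.5, featureCounts 1.5.3, edgeR 3.18.1 and build hg38. The authors deposited FPKM per gene and library, together with fold changes and p-values of their own, which were not used. How reads shared between overlapping genes or paralogues were counted is not given in the sources used here. FPKM times gene length gave whole reads for 100% of values (tolerance 0.01 reads), so the reads behind a value are known. Intervals on reads cover their counting error and nothing else.

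The 16006 genes whose mean reached 0.5 FPKM entered a fit of log2(FPKM + 0.1) by limma 3.58.1 (R 4.3.3), with trend and robust options of eBayes and two-sided tests. P-values were Benjamini-Hochberg adjusted over all of them, with calls at an FDR under 0.01. Fold changes on this scale understate changes of low genes. The procedure was also run on simulated reads with the same variability setting for every gene. These lack the shared ordering of the MIR21-KO libraries, so that run does not measure error rates in these data. Members and lists were chosen with earlier results of these data known. The named genes were all members, the further targets, and called further pathway genes, with a change of at least 2-fold for those given in full. FJX1, below that fold, was named after its values were seen. The planned rule for both further lists was to name only called genes with at least that fold. Further targets below that fold or not called thus also fall outside it. The marker gene NKX2-1 was not analysed here, and 1 further target is counted but not reported here by name.

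Alternatives were to leave out single libraries, to add a replicate block, other pseudocounts (1, 0.01) and minimum levels (none, 5 FPKM), median-ratio and total-read scaling, voom on recovered reads, limma without trend and robust fitting, protein-coding genes only, and an FDR under 0.05. Coordinates are from GENCODE 29 (GRCh38) and promoter and miRNA sequences from RefSeq (GRCh38.p14). The promoters of ASAP1, CCN1, CRIM1, DCHS1, DLC1, STK3, TEAD1, TEAD4 and TGM2 were not used here. TEAD letters were GGAATG and AP-1 letters TGANTCA (N taken as any base), searched on both strands. Figures were drawn with matplotlib 3.10.9.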

Additional observations from a re-analysis of the deposited data

How the results depend on the processing

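Of the 10 called genes, 6 (AMOTL2, AJUBA, CCN2, TGM2, NT5E and FSTL1) stayed called in all alternatives in which they were tested, and no called value reversed. At an FDR under 0.05, 17 members were called (9 higher, 8 lower), 8 of them regulators, with 9 further pathway genes and 5114 of all genes (32.0%). Leaving out single libraries gave 6 to 15 called members in place of 10, 4 to 6 in place of 5 higher, 2 to 9 in place of 5 lower, 2 to 7 in place of 4 regulators, 4 to 8 in place of 6 targets, 3 to 8 in place of 5 further pathway genes, 6 to 12 in place of 11 further targets and 784 to 3418 in place of 2568 genes in all. The fewest calls over all genes came without MIR21-KO replicate 2 and the most without MIR21-KO replicate 3. A mean of at least 5 FPKM left 3 further pathway genes called, with fewer genes tested. Same-numbered libraries did not deviate together (correlations of -0.171, -0.018 and -0.017, other pairs -0.13 to 0.155). Deviations were taken from means of 3 libraries, which ties them to each other. This check therefore cannot tell whether same-numbered libraries were handled together. With a replicate block, 7 members were called, 3 lower, with 2 regulators, 3 further pathway genes, 5 further targets and 651 genes in all. Other scalings moved the median log2 fold change of all genes from -0.0174 to -0.0237 (median-ratio) and -0.0525 (total reads), and each left 5 members called higher. Voom on recovered reads called 13 members and 3496 genes. Depth limits AMOT, DCHS1 and ANKRD1 most, with 1 read in Ctrl and 7 in MIR21-KO for AMOT.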
